A study of Mus musculus with 6 samples.

Results

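Ribosome biogenesis and Pol I genes were followed here as 40 named genes of 18766 genes tested, in mouse bone marrow cells carrying wild type or mutant MLLT3. The genes were chosen by name for their known roles, with earlier results of these data known. They were kept if their mean was at least 3 over the 6 libraries. All 40 were found once each, with means from 8.63 for Gar1 to 14.41 for Ncl, so the filter on low values removed none.

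Cells positive for Kit were taken from mouse bone marrow and given a lentivirus that overexpressed MLLT3. In 3 libraries (WT) the protein was wild type, and in 3 libraries (DM) it carried both K63E and K67E. The cells were sorted and grown for 8 days in methylcellulose with Flt3L (10 ng/mL), with further cytokines that included EPO, SCF, GM-CSF, IL-3, IL-6 and IL-11 (each 20 ng/mL), with gentamycin and with 4-hydroxytamoxifen (200 nM). The tamoxifen, which both groups received, was meant to delete the endogenous Mllt3 gene. No untransduced cells and no cells that kept Mllt3 were compared, and the strain, the age, the deletion allele and the Cre driver are not given in the sources used here. Nothing says whether the replicates were separate animals or cultures, so p-values measure the spread between these libraries, which may be technical. The labels give all 6 libraries the same batch.

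Ribosomes are built in the nucleolus. RNA polymerase I (Pol I) transcribes the ribosomal DNA into a long precursor, small nucleolar ribonucleoproteins (snoRNPs) modify it, and assembly factors cut and fold it into the small and the large subunit. The transcription factor MYC activates many of these genes, and blood progenitors that divide quickly have large nucleoli and high ribosome output.

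MYC with its partner MAX binds the 6-base sequence CACGTG, an E-box that reads the same on both strands, so it was searched in the RefSeq promoter windows on GRCm38.p6, which hold 250 bases before and 50 bases from each start site onward. A window was found for 33 of the 40 genes, and 9 of the 33 (27.3%) held the motif in at least 1 window. The share was 11.1% of the 12349 tested genes with a window and 8.09% of all 27025 genes in the table of promoters. Among 7 lists of other genes of the pathway it was 27 of 131 (20.6%), from 8.33% of the RNA exosome to 36.4% of the network of MYC and MAX. The 10 matches are printed with their positions and lie in genes of Pol I transcription (Rrn3, Mybbp1a) and of both subunits. Only these windows were searched, so every match had to lie near a start site. No match lay in the windows of Ncl, Ddx21 and Gnl3 or in those found for the snoRNP genes. Each stretch is given 5′ to 3′ on the strand of the gene, with the motif in capitals and up to 12 bases on either side.
Rrn3, site at -215 (chr16:13780472-13780501, plus strand): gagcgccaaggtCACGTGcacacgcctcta
Rrn3, site at -48 (chr16:13780639-13780668, plus strand): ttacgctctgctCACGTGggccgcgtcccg
Nop2, site at -60 (chr6:125131811-125131840, plus strand): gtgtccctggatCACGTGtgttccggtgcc
Pes1, site at 3 (chr11:3963965-3963994, plus strand): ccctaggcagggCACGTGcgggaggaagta
Utp4, site at 16 (chr8:106893643-106893672, plus strand): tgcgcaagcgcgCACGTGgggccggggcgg
Wdr43, site at 18 (chr17:71616220-71616249, plus strand): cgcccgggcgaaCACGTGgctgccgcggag
Tsr1, site at 25 (chr11:74898092-74898121, plus strand): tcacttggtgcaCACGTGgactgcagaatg
Ltv1, site at 29 (chr10:13193092-13193121, minus strand): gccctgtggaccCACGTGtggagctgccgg
Utp20, site at 38 (chr10:88826765-88826789, minus strand): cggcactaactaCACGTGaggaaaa
Mybbp1a, site at 41 (chr11:72441355-72441376, plus strand): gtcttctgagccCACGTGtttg
Positions count from 1 at the start site and give the first base of the motif. The windows end soon after the last 2 motifs, so those stretches are shorter. Of the 10 matches, 7 lay downstream of the start site, in the first bases of the transcript. A match is a stretch of letters, and binding was not measured.

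Each value is a regularized logarithm to base 2 (rlog), so a difference of 1 is a doubling, and values of different genes are not comparable in level because they are not scaled by length. Depth is unknown, since no counts were given. Mllt3 itself had rlog values of 12.87, 12.60 and 12.44 in the WT libraries against 12.44, 12.03 and 11.99 in the DM libraries, a change of -0.48 (limma adjusted p 0.0448) that does not separate the vector from the endogenous gene. It passed in 8 of 14 alternatives, with changes of Mllt3 from -0.62 to -0.36. Its groups overlapped slightly, with DM replicate 1 (12.443) just above WT replicate 3 (12.438). Kit was high in every library, at 14.29 to 14.58 in WT and 14.30 to 14.90 in DM (change 0.20, limma adjusted p 0.368). Mast cell and basophil markers had a summed level of 19.09 to 19.43 in WT and 19.21 to 19.62 in DM. Which cells held the Kit RNA was not measured. Of all tested genes, 2611 passed an adjusted p of 0.05, and 66.1% of them were higher in DM, against 51.3% of 2654 after quantile normalization. Of 20 neutrophil markers 15 were called lower, beside 4.71% of all genes. The summed level of this list was 18.89 to 19.27 in WT and 17.98 to 18.47 in DM. Of 17 monocyte and macrophage markers tested 11 were called higher, beside 9.2% of all genes, and 2 lower (Ly6c2 and Ccr2). Their list had a summed level of 18.31 to 19.00 in WT and 19.29 to 19.66 in DM, with C1qa below the filter. Genes with high values weigh most in such sums. In bulk samples fewer cells of a type and less RNA per cell cannot be told apart, and the part of these shifts in the values below was not tested.

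None of the 40 ribosome biogenesis and Pol I genes passed the test between DM and WT. With limma on all 6 libraries, 0 of the 40 genes had an adjusted p under 0.05, beside 13.9% of all genes tested (9.2% higher and 4.71% lower). An unadjusted p under 0.05 was seen for 6 of the 40 (15%), beside 28.9% of all genes. DM and WT were fully apart for 7 of the 40 genes (17.5%), beside 35.8% of all genes. In DM 20 genes had a higher and 20 a lower mean, the median change was 3.77e-05, and the changes ran from -0.33 to 0.23. The change was under 0.1 in size for 25 of the 40 genes and under 0.2 for 34. The median size of the change was 0.074 for the 40, beside 0.10 over all genes tested and 0.14 for those in that range. The 95% interval of the change lay wholly between -0.5 and 0.5 for 38 of the 40, all but Npm1 and Dkc1. It did so for 16383 of all 18766 genes tested and for 6775 of the 8393 in that range, so most genes met this bound.

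This count depended on the scaling between libraries. Tested genes whose means lay in the range of the 40 had a median change of 0.10 (8393 genes), against 0.0053 over all genes tested. After quantile normalization, which took the median of those genes to 0.0094, the median of the 40 genes was -0.080 and 34 of the 40 had a lower mean in DM. Then 6 genes passed the test, all of them lower (Npm1, Dkc1, Ncl, Nop56, Rrp1b and Mybbp1a), beside 6.88% of all genes called lower and 14.1% called in either direction. Centring each library on the genes in that range, an alternative chosen after seeing the data, gave 8 of 40 lower, with Nolc1 and Polr1b added, beside 8.54% of all genes called lower (14.9% in either direction), and a median of -0.10. Centring on the median of all tested genes gave 2, Npm1 and Rrp1b, both lower, beside 5.76% called lower (14.7% in either direction). Without WT replicate 3, 4 genes passed, all lower (Npm1, Dkc1, Nop56 and Rrp1b), beside 4.93% of all genes called lower (10.6% in either direction). Without WT replicate 2 only Heatr1 passed, higher, beside 12.4% called higher (18.5% in either direction). None passed without WT replicate 1 (6.31% of all genes), DM replicate 1 (9.91%), DM replicate 2 (5.96%) or DM replicate 3 (8.19%), with no filter (5.94%) or without the mean-variance trend (14.8%). Testing genes with a mean of at least 5 gave 1, Npm1, lower, beside 6.98% called lower (22.4% in either direction), and a replicate block gave 5, beside 19.9%.

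**Figure D1:**
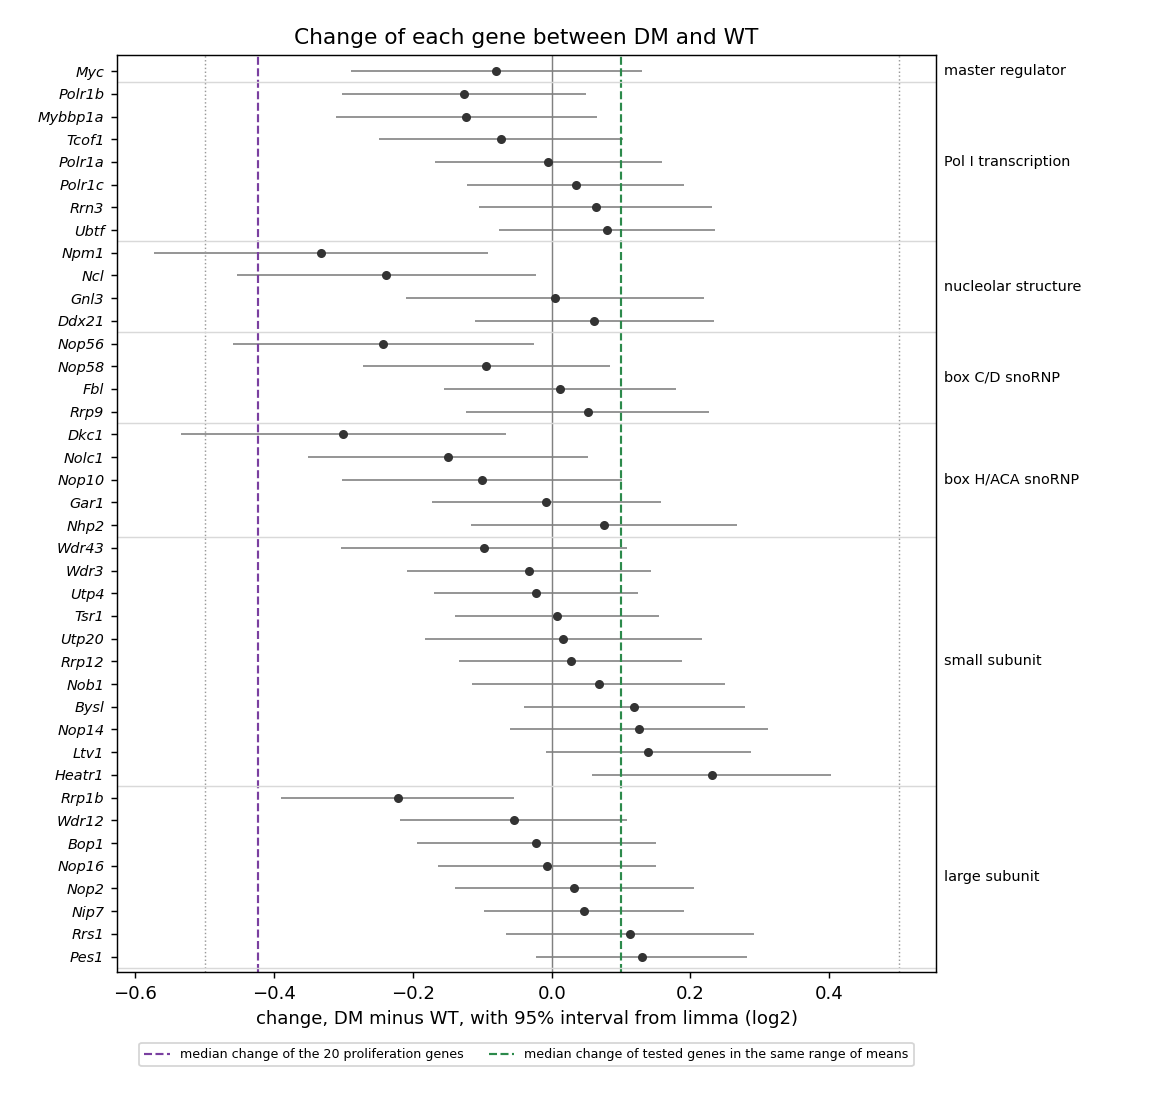
Change between DM and WT of each of the 40 genes (points, log2 scale) with its 95% interval from limma (bars), grouped by role, with dotted lines at -0.5 and 0.5. Most points lie within 0.1 of 0, between the median of the proliferation genes (-0.42, purple) and that of tested genes in the same range of means (0.10, green).

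In the order of replicates 1, 2 and 3, as for every gene here, Myc (ENSMUSG00000022346.16; chromosome 15, 61985391 to 61990374, plus strand, on GRCm38) had rlog values of 11.98, 12.03 and 11.68 in the WT libraries against 11.82, 11.84 and 11.79 in the DM libraries. The DM values lay close together, inside the range of WT, in which replicate 3 was the lowest. Its mean was 11.90 ± 0.19 in WT (SD, n = 3) against 11.82 ± 0.0267 in DM, a change of -0.08 with a 95% interval from -0.29 to 0.13 (limma adjusted p 0.6). Over the alternatives the change of Myc ran from -0.19 to -0.013 and never passed the test.

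Among the 40 genes are 3 subunits of Pol I, with changes from -0.13 to 0.03. Polr1a, the largest subunit, had rlog values of 10.98, 10.95 and 10.83 in the WT libraries against 11.01, 10.89 and 10.85 in the DM libraries, a change of -0.0047 (95% interval -0.17 to 0.16, limma adjusted p 0.972). Each group spanned nearly the same range. Polr1b, which forms the active site together with Polr1a, had values of 9.56, 9.55 and 9.36 in the WT libraries against 9.43, 9.37 and 9.28 in the DM libraries. DM replicates 1 and 2 lay between WT replicate 3 and the higher WT libraries, and the change was -0.13 (95% interval -0.30 to 0.05, limma adjusted p 0.312). Polr1c, a subunit that Pol I shares with Pol III, had values of 9.16, 9.10 and 9.07 in the WT libraries against 9.24, 9.08 and 9.11 in the DM libraries, a change of 0.03 (limma adjusted p 0.771). Its groups overlapped, with DM replicate 1 the highest.

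Other genes of Pol I transcription act at its template. Ubtf, which binds along the ribosomal DNA and keeps it open, had values of 12.26, 12.20 and 12.15 in the WT libraries against 12.34, 12.29 and 12.21 in the DM libraries, a change of 0.08 (95% interval -0.08 to 0.24, limma adjusted p 0.468). Rrn3, which couples Pol I to its promoter and holds 2 E-boxes in its window, had values of 10.83, 10.91 and 10.69 in the WT libraries against 10.93, 10.84 and 10.85 in the DM libraries, a change of 0.06 (limma adjusted p 0.603). Both pairs of groups overlapped, and both changes were -0.04 after quantile normalization. Tcof1, the nucleolar protein treacle that links Pol I to rRNA modification, had values of 11.35, 11.35 and 11.18 in the WT libraries against 11.32, 11.21 and 11.14 in the DM libraries, a change of -0.07 (limma adjusted p 0.565). Mybbp1a, a nucleolar protein that binds Pol I and MYB, had values of 12.37, 12.36 and 12.12 in the WT libraries against 12.23, 12.15 and 12.11 in the DM libraries. Only WT replicate 3 of Mybbp1a lay among the DM values, and the change was -0.12 (95% interval -0.31 to 0.06, limma adjusted p 0.352, and 0.0258 after quantile normalization). It passed in 2 of 14 alternatives, with limma adjusted p up to 0.657.

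Of 4 genes listed for nucleolar structure and growth, Npm1 and Ncl had lower means in DM. Npm1 (ENSMUSG00000057113.13; chromosome 11, 33152287 to 33163206, minus strand), nucleophosmin of the outer nucleolus, had rlog values of 14.25, 14.09 and 13.88 in the WT libraries against 13.86, 13.75 and 13.62 in the DM libraries. The groups did not overlap, but the gap between WT replicate 3 and DM replicate 1 was small. The mean was 14.07 ± 0.186 in WT (SD, n = 3) against 13.74 ± 0.121 in DM, a change of -0.33 (SE 0.108, 95% interval -0.57 to -0.09, limma adjusted p 0.0701). Among the alternatives Npm1 passed in 6 of 14, with changes from -0.49 to -0.24 and limma adjusted p from 0.00375 to 0.231. Npm1 is known to have processed copies elsewhere in the genome, and how reads shared with them were counted is not given in the sources used here, so its value is uncertain. Ncl (ENSMUSG00000026234.12; chromosome 1, 86344719 to 86359400, minus strand), nucleolin, which binds nascent rRNA precursor, had values of 14.66, 14.53 and 14.40 in the WT libraries against 14.39, 14.31 and 14.17 in the DM libraries. These did not overlap either, and the change was -0.24 (SE 0.0964, 95% interval -0.45 to -0.02, limma adjusted p 0.135). Ncl passed in 3 of 14 alternatives, with limma adjusted p up to 0.358.

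The means of the other nucleolar genes lay closer together. Ddx21, an RNA helicase that acts with Pol I and Pol II, had values of 12.70, 12.65 and 12.57 in the WT libraries against 12.81, 12.68 and 12.62 in the DM libraries, a change of 0.06 (limma adjusted p 0.625). Gnl3, the GTPase nucleostemin, which is abundant in stem and progenitor cells, had values of 10.85, 10.74 and 10.49 in the WT libraries against 10.79, 10.63 and 10.68 in the DM libraries, a change of 0.0048 (95% interval -0.21 to 0.22, limma adjusted p 0.978). The WT libraries of Gnl3 enclosed all 3 DM libraries, and the groups of Ddx21 overlapped with DM replicate 1 the highest.

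**Figure D2:**
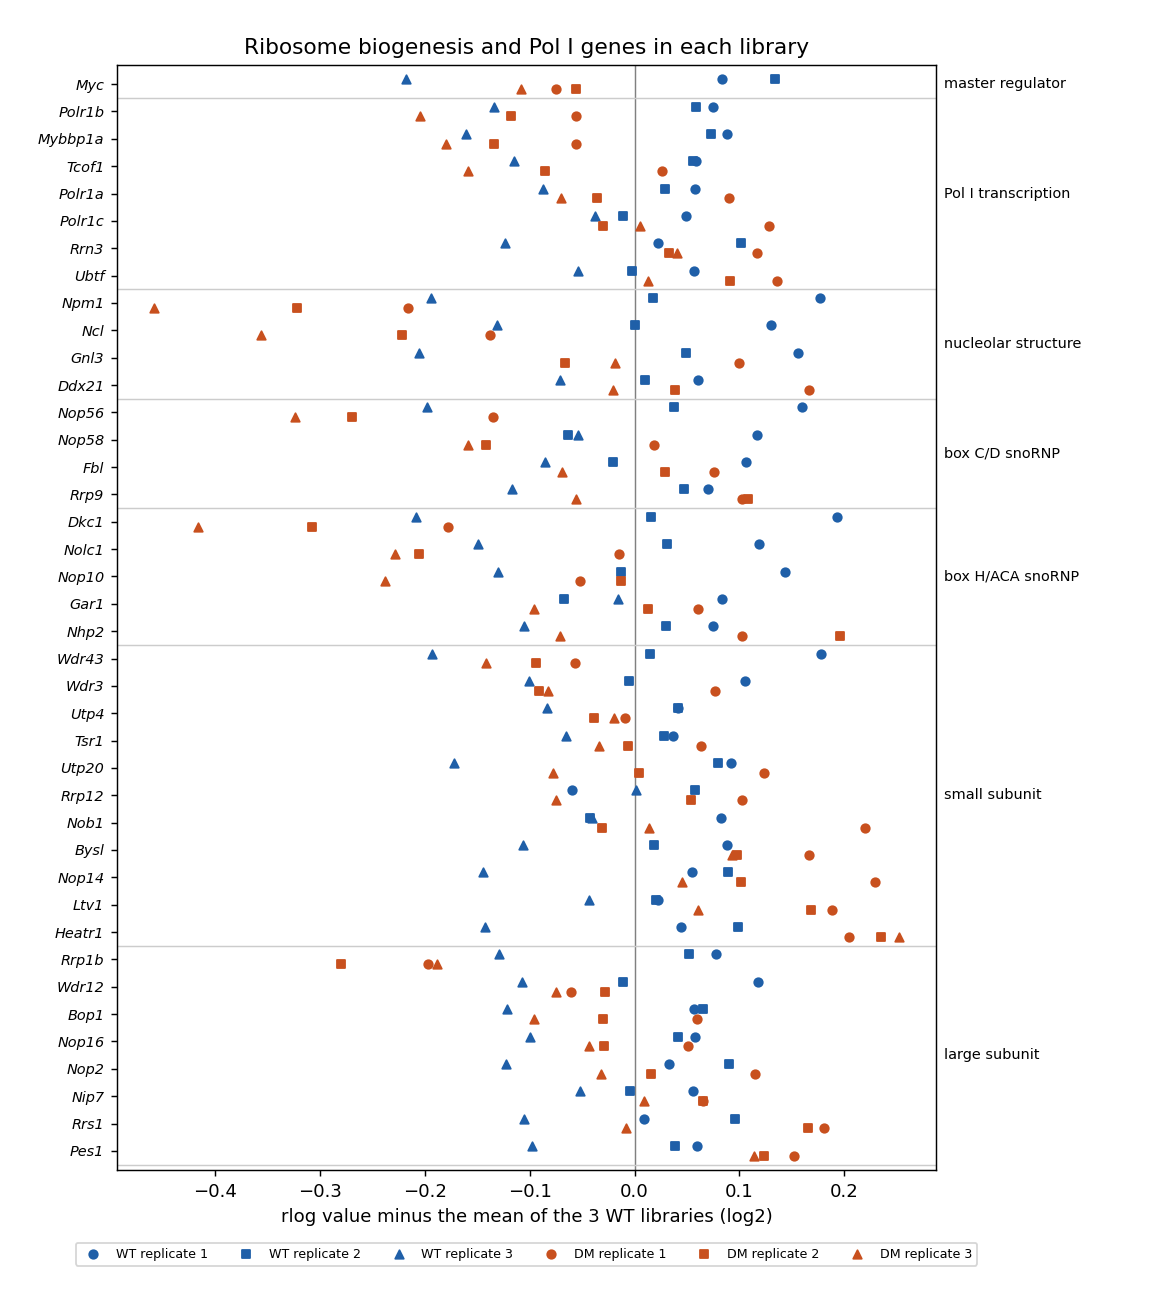
Value of each gene in each library relative to the mean of its 3 WT libraries (log2 scale), with WT in blue, DM in orange and marker shape giving the replicate number. The 3 DM libraries lie below all WT libraries for Npm1, Ncl and Rrp1b and above all of them for Heatr1, Ltv1, Bysl and Pes1, and overlap WT for the other 33 genes.

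The box C/D snoRNP guides methylation of rRNA. Fbl, fibrillarin, its methyltransferase, had rlog values of 10.51, 10.38 and 10.32 in the WT libraries against 10.48, 10.43 and 10.33 in the DM libraries, a change of 0.012 (95% interval -0.16 to 0.18, limma adjusted p 0.93). Nop56 (ENSMUSG00000027405.16; chromosome 2, 130274430 to 130279313, plus strand), 1 of the paired scaffold proteins, had values of 11.75, 11.63 and 11.39 in the WT libraries against 11.45, 11.32 and 11.27 in the DM libraries. Only WT replicate 3 reached into the DM range, and the change was -0.24 (SE 0.0972, 95% interval -0.46 to -0.03, limma adjusted p 0.133). Without WT replicate 3 the change of Nop56 was -0.34 (limma adjusted p 0.026), and it passed in 4 of 14 alternatives, with changes from -0.35 to -0.16 and limma adjusted p up to 0.35. Its partner Nop58 had values of 11.47, 11.29 and 11.30 in the WT libraries against 11.37, 11.21 and 11.20 in the DM libraries, a change of -0.09 (limma adjusted p 0.454). Rrp9, a protein specific to the snoRNP that starts small subunit processing, had values of 9.74, 9.72 and 9.56 in the WT libraries against 9.78, 9.78 and 9.62 in the DM libraries, a change of 0.05 (limma adjusted p 0.689). The changes of the 4 genes of this particle lay on both sides of 0, and all 4 pairs of groups overlapped.

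The box H/ACA snoRNP converts uridines of rRNA to pseudouridine. Dkc1 (ENSMUSG00000031403.14; chromosome X, 75095854 to 75109777, plus strand), dyskerin, its pseudouridine synthase, had rlog values of 11.24, 11.06 and 10.84 in the WT libraries against 10.87, 10.74 and 10.63 in the DM libraries. Only WT replicate 3 fell among the DM values. The mean was 11.04 ± 0.201 in WT (SD, n = 3) against 10.74 ± 0.119 in DM, a change of -0.30 (SE 0.105, 95% interval -0.53 to -0.07, limma adjusted p 0.0892), and -0.40 without WT replicate 3 (limma adjusted p 0.0206). Dkc1 passed in 4 of 14 alternatives, with changes from -0.40 to -0.20 and limma adjusted p up to 0.265. The 3 small core proteins that sit with dyskerin had changes nearer to 0. Nhp2 had values of 11.53, 11.49 and 11.35 in the WT libraries against 11.56, 11.65 and 11.39 in the DM libraries, a change of 0.08 (limma adjusted p 0.585). Nop10 had values of 9.68, 9.52 and 9.41 in the WT libraries against 9.49, 9.52 and 9.30 in the DM libraries, a change of -0.10 (limma adjusted p 0.48). Gar1 had values of 8.71, 8.56 and 8.61 in the WT libraries against 8.69, 8.64 and 8.53 in the DM libraries, a change of -0.0076 (limma adjusted p 0.955). All 3 overlapped between groups, and whether their changes differ from that of Dkc1 was not tested. Nolc1, a chaperone that binds both kinds of snoRNP, had values of 11.97, 11.88 and 11.70 in the WT libraries against 11.84, 11.65 and 11.62 in the DM libraries, a change of -0.15 (95% interval -0.35 to 0.05, limma adjusted p 0.297). Only WT replicate 3 lay among the DM values of Nolc1.

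Of the 11 small subunit genes, 8 had a higher mean in DM and the median change was 0.03, beside 6066 of the 8393 tested genes in the same range of means. Heatr1 (ENSMUSG00000050244.9; chromosome 13, 12395027 to 12440289, plus strand), a processome subunit that also aids Pol I transcription, had rlog values of 11.57, 11.63 and 11.39 in the WT libraries against 11.73, 11.76 and 11.78 in the DM libraries. Every DM library was above every WT library. The mean was 11.53 ± 0.127 in WT (SD, n = 3) against 11.76 ± 0.0242 in DM, a change of 0.23 (SE 0.0773, 95% interval 0.06 to 0.40, limma adjusted p 0.0788), the largest positive change of the 40. Without WT replicate 2 it was 0.28 (limma adjusted p 0.0371), and after quantile normalization 0.12 (limma adjusted p 0.137). Heatr1 passed in 2 of 14 alternatives, with limma adjusted p up to 0.304. The annotation places Lgals8 and Gm5928 on the opposite strand over part of Heatr1. For 17 of the 40 genes it places a gene on the opposite strand, among them Nop56 (Idh3b), Dkc1 (Mpp1) and Rrp1b (Hsf2bp). Whether reads were counted by strand is not given in the sources used here, so reads of such pairs may not be told apart.

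Ltv1, an assembly factor released late from the small subunit, had values of 10.09, 10.08 and 10.02 in the WT libraries against 10.25, 10.23 and 10.12 in the DM libraries, a change of 0.14 (95% interval -0.01 to 0.29, limma adjusted p 0.196). Nop14, a processome protein, had values of 10.68, 10.72 and 10.49 in the WT libraries against 10.86, 10.73 and 10.68 in the DM libraries, a change of 0.13 (limma adjusted p 0.339). Bysl, which binds the small subunit precursor until export, had values of 10.30, 10.23 and 10.11 in the WT libraries against 10.38, 10.31 and 10.31 in the DM libraries, a change of 0.12 (limma adjusted p 0.293). DM was above WT throughout for Ltv1 and Bysl, while Nop14 overlapped. The remaining 7 (Utp20, Utp4, Wdr43, Wdr3, Rrp12, Tsr1 and Nob1) had changes from -0.10 to 0.07, limma adjusted p from 0.508 to 0.948, and overlapping groups. Nob1 is the endonuclease that makes the end of the mature small subunit rRNA, and Utp4 and Wdr43 belong to the first subcomplex to join the nascent precursor.

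For the large subunit, 4 of 8 genes were higher in their mean and the median change was 0.013. Rrp1b (ENSMUSG00000058392.13; chromosome 17, 32036100 to 32062865, plus strand), a nucleolar processing factor, had rlog values of 10.34, 10.31 and 10.13 in the WT libraries against 10.06, 9.98 and 10.07 in the DM libraries. All DM libraries were below WT, nearest at WT replicate 3. The mean was 10.26 ± 0.113 in WT (SD, n = 3) against 10.04 ± 0.0507 in DM, a change of -0.22 (SE 0.075, 95% interval -0.39 to -0.05, limma adjusted p 0.0805). Among the alternatives Rrp1b passed in 4 of 14, with adjusted p from 0.00601 to 0.243 by limma.

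Pes1, Bop1 and Wdr12 form 1 complex that is needed for maturation of the large subunit. Pes1 had values of 11.12, 11.09 and 10.96 in the WT libraries against 11.21, 11.18 and 11.17 in the DM libraries, a change of 0.13 (95% interval -0.02 to 0.28, limma adjusted p 0.236). Wdr12 had values of 10.06, 9.93 and 9.83 in the WT libraries against 9.88, 9.91 and 9.86 in the DM libraries, a change of -0.05 (limma adjusted p 0.649). The DM libraries of Pes1 lay above WT, those of Wdr12 inside it, and Bop1 had a change of -0.02 (limma adjusted p 0.871). Rrs1, which helps to place the ribosomal particle that holds the small rRNA made by Pol III, had values of 10.39, 10.48 and 10.28 in the WT libraries against 10.56, 10.55 and 10.38 in the DM libraries, a change of 0.11 (limma adjusted p 0.371). With Bop1, the rRNA methyltransferase gene Nop2 and the assembly genes Nop16 and Nip7 made up the other 4, whose changes ran from -0.02 to 0.05 with overlapping groups.

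The 40 genes varied together between libraries of 1 group more than between the groups. Relative to the mean of the 6 libraries, their mean level was 0.092, 0.043 and -0.10 in WT (replicates 1, 2 and 3) against 0.058, -0.016 and -0.075 in DM. WT replicate 3 was the lowest WT library for 36 of the 40 genes, and DM replicate 3 the lowest DM library for 32. WT replicate 1 was the highest for 31 and DM replicate 1 for 32. The median over all tested genes differed little between libraries, from 8.03 to 8.11. Tested genes in the same range of means had a median change of 0.10 with all libraries. It was 0.064 without WT replicate 3 and 0.13 without WT replicate 2. How often each library was highest or lowest was not counted for other genes. Whether the pattern is particular to the 40 was not tested. Leaving out replicate 3 of both groups, chosen after seeing the data, left 0 of 40 genes past the test, beside 5.37% of all genes, with a median change of -0.019.

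Proliferation genes, measured in the same libraries, were lower in DM. Of 20 such genes 17 passed the test, all lower, beside 4.71% of all genes, and 12 to 18 did so over the alternatives. Their median change was -0.42. Their mean level was 0.27, 0.26 and 0.096 in WT and -0.12, -0.23 and -0.28 in DM, so that every DM library was below every WT library. This list was chosen with its difference in these data known, and its part in the values of the ribosome biogenesis genes was not tested.

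**Figure D3:**
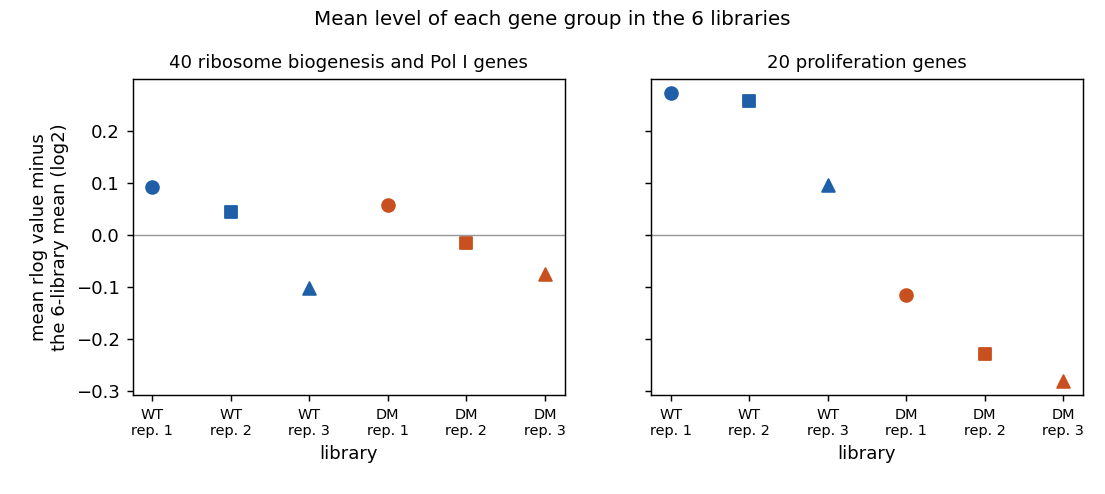
Mean rlog value, relative to the mean of the 6 libraries (log2 scale), of the 40 ribosome biogenesis and Pol I genes (left) and of 20 proliferation genes (right) in each library, with WT in blue and DM in orange. The groups overlap on the left, from -0.10 to 0.092 in WT and from -0.075 to 0.058 in DM, and do not overlap on the right.

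Other genes of the pathway were listed by function. Over 7 lists with 154 tested genes, 6 passed the test (3.9%), 4 higher and 2 lower, beside 13.9% of all genes, and the median change was 0.03. None of 11 further Pol I genes passed (limma, unadjusted p under 0.05 for 0), among them the subunits Polr1d, Polr1e, Twistnb, Cd3eap and Znrd1 and the promoter factors Taf1a to Taf1d. Their median change was 0.04. None of 40 further large subunit assembly genes passed (unadjusted p under 0.05 for 5). Nor did any of 13 genes of the RNA exosome, which trims precursors (unadjusted p under 0.05 for 2). Over all genes tested, 28.9% had an unadjusted p under 0.05 by limma.

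The 3 calls among 42 further small subunit processome genes (7.14%) were all higher in DM, beside 9.2% of all genes called higher (13.9% in either direction). Rrp36, a processing factor for the small subunit rRNA, had rlog values of 9.34, 9.24 and 9.33 in the WT libraries against 9.60, 9.64 and 9.55 in the DM libraries, a change of 0.29 (SE 0.0657, limma adjusted p 0.0178). Rrp7a had values of 11.04, 11.03 and 10.86 in the WT libraries against 11.29, 11.30 and 11.19 in the DM libraries, a change of 0.28 (SE 0.0748, limma adjusted p 0.0345). Pno1, which stays on the small subunit until its last cleavage, had values of 10.22, 10.24 and 10.06 in the WT libraries against 10.48, 10.48 and 10.36 in the DM libraries, a change of 0.27 (SE 0.0737, limma adjusted p 0.0407). In all 3 every DM library was above every WT library. These calls did not all hold under other scalings: after quantile normalization Rrp36 (limma adjusted p 0.0596) and Rrp7a (0.0568) did not pass, and after centring on genes in the same range of means Rrp36 (0.111), Rrp7a (0.0522) and Pno1 (0.0716) did not. Of the 14 alternatives, Rrp36 passed in 8, Rrp7a in 5 and Pno1 in 6.

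Pol III, which transcribes transfer RNAs and the small rRNA of the large subunit, had 1 of 21 genes called, beside 13.9% of all genes. A higher mean in DM was seen for 17 of the 21, beside 6066 of the 8393 tested genes in the same range of means as the 40. The called gene was the subunit Polr3d, with values of 9.08, 9.16 and 9.13 in the WT libraries against 9.43, 9.41 and 9.34 in the DM libraries, a change of 0.27 (SE 0.0648, limma adjusted p 0.0215), and it passed in 9 of 14 alternatives. No DM library of Polr3d overlapped WT. The median change of the list was 0.09, close to the 0.10 of tested genes in the same range of means as the 40 genes.

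In the network of MYC and MAX, 1 of 11 genes passed (9.09%), lower, beside 4.71% of all genes called lower (13.9% in either direction). Mxd3, a MAX partner that is expressed in dividing cells and opposes MYC, had values of 8.05, 8.10 and 8.02 in the WT libraries against 7.74, 7.82 and 7.75 in the DM libraries, a change of -0.28 (SE 0.0666, limma adjusted p 0.0208), and it passed in 10 of 14 alternatives. Every DM library of Mxd3 was below every WT library. Max itself had a change of 0.015 (limma adjusted p 0.901) and Mycn of -0.04 (0.808). Of 16 enzymes of nucleotide and polyamine synthesis linked to MYC, 13 had a lower mean in DM, with a median change of -0.12. A lower mean was seen for 9090 of all 18766 tested genes and 2327 of the 8393 in the same range of means. Of the 16 enzymes 1 passed (6.25%), lower in DM, beside 4.71% of all genes called lower (13.9% in either direction). Prps1, which makes the sugar donor of nucleotide synthesis, had values of 9.70, 9.68 and 9.50 in the WT libraries against 9.26, 9.16 and 9.09 in the DM libraries, a change of -0.45 (SE 0.0787, limma adjusted p 0.00724), and it passed in all 14 alternatives. Its groups did not overlap either.

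**Figure D4:**
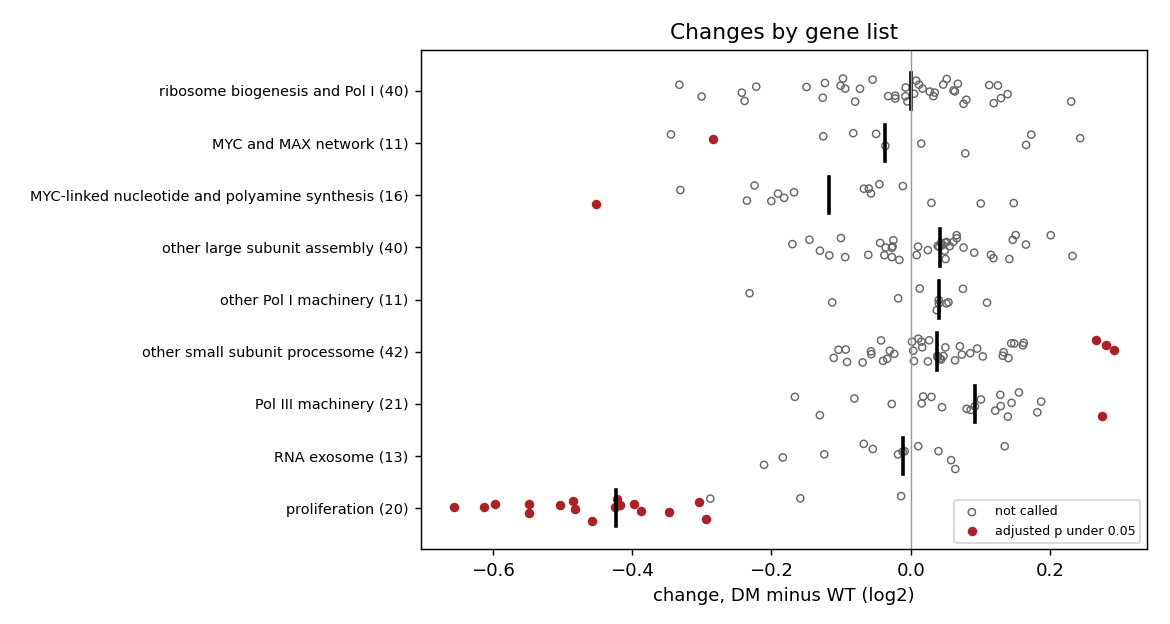
Change between DM and WT (log2 scale) of the genes of each list, with the number of tested genes in brackets, filled points for an adjusted p under 0.05 by limma and a black bar at the median. The 40 ribosome biogenesis and Pol I genes have no filled point and a median near 0, while 17 of 20 proliferation genes are filled, with a median of -0.42.

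The 9 genes with CACGTG in their window had a median change of 0.017, from -0.12 for Mybbp1a to 0.14 for Ltv1, and 3 of the 9 had a lower mean in DM. The 24 genes with a window and no match had a median of -0.006, from -0.30 for Dkc1 to 0.23 for Heatr1. Outside this split were 7 genes without a window (Npm1, Rrs1, Rrp12, Tcof1, Myc, Bop1 and Fbl). Among them Npm1, at -0.33, had the largest change of the 40. The annotation places snoRNA genes inside 7 of the 40 genes (Ncl, Gnl3, Nop56, Nop58, Dkc1, Wdr43 and Tsr1), and many snoRNAs are known to be cut from introns of such hosts. Those 7 had a median change of -0.10, and 5 of the 7 a lower mean, beside a median of 0.017 and 15 of 33 for the others. This split was made after the values were seen.

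CT010467.1 is a gene annotated as rRNA, named here with its values known. It had rlog values of 21.77, 21.81 and 21.81 in the WT libraries against 21.88, 21.81 and 21.74 in the DM libraries. The groups overlapped, and the change was 0.012 (95% interval -0.44 to 0.47, limma adjusted p 0.974). Since abundant RNA was depleted when the libraries were made, this value is not a measure of Pol I output.

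**Figure D5:**
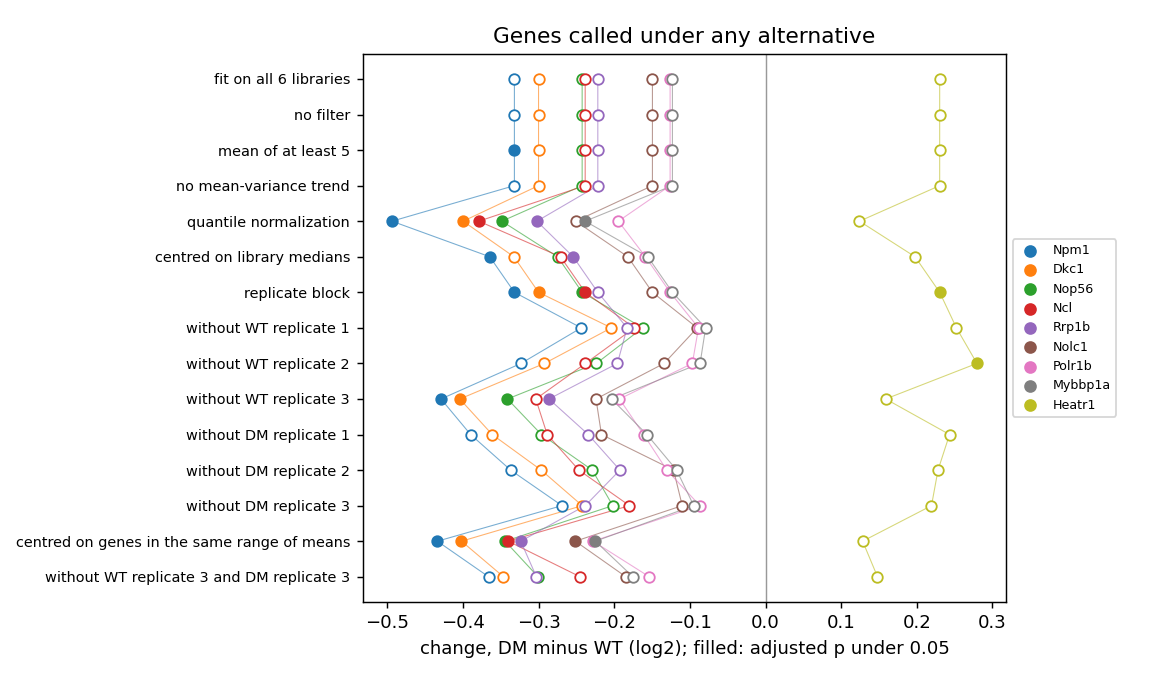
Change between DM and WT (log2 scale) of the 9 genes that passed the test under any alternative, in the fit on all 6 libraries and in each of 14 alternatives, filled where the adjusted p was under 0.05. No point is filled in the fit on all 6 libraries, and 8 of the 9 genes stay below 0 and Heatr1 above 0 throughout.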

How the data were processed

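The authors deposited 1 table of values on the log2 scale. They are rlog values, a transform that scales libraries and shrinks low genes toward their mean, so fold changes of low genes are understated. The transform was read from the table's name and values (-1.97 to 21.88). The submitters' processing notes name cutadapt 2.6, STAR 2.7.3, DESeq2 1.30.0 and mm10. The counting tool is not given in the sources used here, and depth is unknown.

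Repeated lines (142699) were merged to 55487 genes. Coordinates are from GENCODE M21 on GRCm38. Myc matched without its version number. Genes with a mean of at least 3 were tested with limma 3.58.1 in R 4.3.3 (mean-variance trend, no covariates), DM minus WT, with Benjamini-Hochberg adjustment over all 18766 genes and a threshold of 0.05. Figures were drawn with matplotlib 3.10.9.

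The members and lists were chosen with earlier results of these data known. Values per library are given for Myc, the Pol I, nucleolar and snoRNP genes, and the 4 largest changes in each subunit group. Up to 3 called genes per pathway list are named. The summed level of markers is the log2 of their summed linear values. The alternatives were 2 other filters, no trend, 2 other scalings, a replicate block and each library left out. A scaling to genes in the same range of means and leaving out replicate 3 of both groups were added after seeing the data.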

Additional observations from a re-analysis of the deposited data

How the results depend on the processing

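Depth is unknown, and 3 libraries per group limit the precision. The number of the 40 genes past the test was 0 in the fit on all libraries. It was 1 with a mean of at least 5 (lower, beside 6.98% of all genes called lower) and 6 after quantile normalization (6 lower, beside 6.88%). It was 2 after centring on library medians (2 lower, beside 5.76%). Centring on genes in the same range of means gave 8 (8 lower, beside 8.54%). With 1 library left out the number ran from 0 to 4, with 0 to 1 higher and 0 to 4 lower, beside 5.96% to 18.5% of all genes called. It stayed at 0 without replicate 3 of both groups, beside 5.37%. The median change was -0.080 after quantile normalization and -0.102 after centring on genes in the same range, and -0.053 to 0.028 with 1 library left out. Genes called over the table ran from 1119 (without DM replicate 2) to 3475 (without WT replicate 2) with 1 library left out (598 to 2323 higher, 521 to 1152 lower), were 1185 without WT replicate 1 and 1537 without DM replicate 3, and were 1008 without replicate 3 of both groups (431 higher, 577 lower). Centring on genes in the same range gave 1602 lower. The 6 of 154 pathway genes called (13.9% of all genes) became 15 after quantile normalization (14.1%) and 19 after centring on genes in the same range (14.9%). They became 1 to 10 with 1 library left out (5.96% to 18.5%) and 3 without replicate 3 of both groups (5.37%). The cause was not tested. Of the 40 genes, 31 were never called in the 14 alternatives, 9 were called in at least 1, and 20 changed sign in at least 1 but never with a call.

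The replicate numbers do not pair the samples by any label, and the correlation of deviations over all genes was 0.49, 0.12 and 0.041 for numbers 1 to 3, so that not every sample correlated best with its own number. With a replicate block 5 of the 40 genes passed, 1 higher (Heatr1) and 4 lower (Npm1, Dkc1, Ncl and Nop56). Then 13 pathway genes passed, and 3742 genes over the table (19.9%), 2632 of them higher.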
